A study of Mus musculus with 8 samples.

Results

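Contractile adaptors are the proteins that bind actin filaments and tie them to myosin, to dense bodies or to the tips of stress fibres. Genes of this kind, *Synpo*, *Synpo2*, *Smtn*, *Smtnl2*, *Lmod1*, *Cald1*, *Cnn1*, *Cnn2*, *Cnn3* and *Tagln2*, were taken by symbol (10 in all) from 54532 gene identifiers, and all 10 passed the filter on low expression that left 22544 genes. They were put together with results of the same comparison known, so their differences between treatments are given as a description. Bulk RNA-seq was performed on primary pericyte cultures from wild-type mouse brain, in which pericytes are the mural cells of capillaries. The 4 TGF-β1 cultures had received this secreted cytokine at 5 μg/mL for 48 h, and the 4 vehicle cultures had received the carrier over the same 48 h. The cultures were passaged before treatment. The methods describe 4 independent isolates treated with vehicle and TGF-β1, which can be read as each isolate giving a culture to both groups. The labels do not say which vehicle and TGF-β1 cultures share an isolate, so the groups were compared without pairing. Any p-value sets the difference between the groups against the spread between cultures within a group.

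As background, synaptopodins and smoothelins are scaffolds of actin bundles, leiomodins start new actin filaments, caldesmon and calponins bind along filaments and restrain myosin, and transgelins crosslink them. *Synpo2*, *Smtn*, *Lmod1*, *Cnn1* and *Tagln* are known from differentiated smooth muscle, whereas *Cnn2*, *Cnn3* and *Tagln2* are found in many cell types. In smooth muscle cells the former are classical targets of serum response factor (SRF), which binds the CArG box together with myocardin or the MRTF coactivators.

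The libraries held 45255235 to 47651397 counts each, and between 68.5% and 70.2% of the counts from 1 to 20 were even numbers, for which the cause was not tested. Pairs of cultures within a group differed by 2.25 to 3.93 per degree of freedom in a chi-square test of their counts, or 1.12 to 1.96 with counts halved, and each was kept as 1 replicate. Of 10 pericyte markers, *Pdgfrb*, *Cspg4*, *Notch3* and *Anpep* were between 28.7 and 294 CPM (the count scaled to the size of the library) in every culture, whereas *Kcnj8*, *Abcc9*, *Vtn* and *Des* stayed under 1 CPM in all 8, and *Rgs5* was at 8.62 CPM with vehicle and 2.13 CPM with TGF-β1. The pericyte list summed to between 418 and 439 CPM with vehicle and between 578 and 601 CPM with TGF-β1, but its genes did not move one way. *Pdgfrb* was at 202 CPM with vehicle and 291 CPM with TGF-β1, *Cspg4* at 82.9 and 169 CPM, and *Mcam* at 5.25 and 10.1 CPM. *Anpep* was at 40.5 and 30.1 CPM, and *Notch3* at 88.5 and 85.9 CPM. The 6 smooth muscle markers summed to between 695 and 765 CPM over all cultures, nearly all from *Acta2*. Among these 6, the level of *Tagln* is uncertain, as described below. Fibroblast markers were abundant, summing to between 4157 and 4331 CPM with vehicle and between 5509 and 5765 CPM with TGF-β1, mostly from *Col1a1* and *Col1a2*, while *Lum* was at or under 0.131 CPM. The list did not move one way, since *Fbln1* was at 446 CPM with vehicle and 196 CPM with TGF-β1, *Dcn* at 52.1 and 46.7 CPM, and *Pdgfra* at 62.5 and 63.0 CPM. Endothelial markers summed to between 472 and 501 CPM over all cultures, which was mostly *Cdh5*, with *Cldn5* at or under 0.213 CPM and *Pecam1* at or under 1.65 CPM. *Flt1* was at 81.7 CPM with vehicle and 99.2 CPM with TGF-β1, and *Kdr* at 17.9 and 18.6 CPM. *Vwf* was at 1.58 and 3.81 CPM, and *Tek* at 2.71 and 1.99 CPM. The 5 astrocyte markers summed to between 44.3 and 49.6 CPM with vehicle and to between 20.8 and 23.2 CPM with TGF-β1, mostly from *Slc1a2*, and *Aqp4* was at or under 0.131 CPM. Macrophage and microglia, oligodendrocyte and neuron, striated muscle and epithelial lists summed to at most 5.08, 8.49, 6.26 and 1.24 CPM. The part of these cell types in the results below was not tested. In bulk samples, fewer cells of a type and less RNA per cell cannot be told apart.

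Promoter sequence was examined because SRF and TEAD sites are shared by many smooth muscle genes. RefSeq windows on GRCm38.p6, from 250 bases before to 50 after a start site, were found for 9 of the 10 genes (10 windows, since *Cald1* has 2), and none was used for *Synpo*. A CArG box, searched as CC, 6 bases of A or T and then GG without mismatch, was found in 1 of the 10 windows. Of all 32851 windows of the same length, 1.63% held it. Boxes with a mismatch or outside these windows were not counted, so a window without a match does not mean that the gene lacks a CArG box. It lies in *Cnn2*, a calponin of many cell types, and starts 56 bases before the start site. The TEAD motif, GGAATG on either strand, was found in 5 of the 10 windows, against 14.7% of all windows. The stretches below lie upstream of the start site and outside annotated exons. They are written 5′ to 3′ on the strand of the gene with the motif in capitals, and the *Smtn* stretch lies within the span of the gene, in an intron of a longer transcript.
Cnn2 (CArG box, chr10:79988514-79988583, plus strand): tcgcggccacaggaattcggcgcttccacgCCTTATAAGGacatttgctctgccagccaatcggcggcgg
Lmod1 (TEAD motif, chr1:135324653-135324718, plus strand): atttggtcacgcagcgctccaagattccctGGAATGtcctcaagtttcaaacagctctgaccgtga
Smtn (TEAD motif, chr11:3539479-3539542, minus strand): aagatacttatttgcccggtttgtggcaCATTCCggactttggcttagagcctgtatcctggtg
Cald1 (TEAD motif, upstream start site, chr6:34598321-34598386, plus strand): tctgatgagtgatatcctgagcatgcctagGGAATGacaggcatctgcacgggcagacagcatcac
Smtnl2 (TEAD motif, chr11:72411806-72411871, minus strand): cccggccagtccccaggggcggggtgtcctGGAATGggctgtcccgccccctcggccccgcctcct
The window of *Tagln2* holds the TEAD motif at 2 places, inside annotated exons. *Synpo2*, which differed most between treatments, held neither a CArG box nor a TEAD motif in its window, and its last 80 bases before the start site are shown for comparison.
Synpo2 (no motif, chr3:123236150-123236229, minus strand): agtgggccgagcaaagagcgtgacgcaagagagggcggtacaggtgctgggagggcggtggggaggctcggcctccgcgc
The 5 genes with a TEAD motif include genes that were lower, higher and not called with TGF-β1, as described below. The Smad motif CAGAC was found in 6 of the 10 windows, against 49.6% of all windows, the Smad palindrome GTCTAGAC in 0, against 0.213%, and the AP-1 motif TGANTCA in 1 (*Cald1*, downstream start site), against 7.81%. On the opposite strand CAGAC reads GTCTG, which does not overlap the other motifs searched. A match here is a description of the letters, and no binding was measured.

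With TGF-β1, 5 of the 10 genes were lower (*Synpo2*, *Smtn*, *Lmod1*, *Cnn2* and *Cnn3*) and 2 were higher (*Cald1* and *Cnn1*) by edgeR's quasi-likelihood test at a threshold of 0.05 on the adjusted p, where 41.3% of all genes tested were called (20.3% lower and 20.9% higher). *Synpo*, *Tagln2* and *Smtnl2* were not called. The groups did not overlap for 6 of the 10, against 37.9% of all genes tested (18.8% with TGF-β1 below and 19.1% above). *Cald1* and the 5 lower genes were also called with counts halved (45.9% of genes called, 22.6% lower and 23.3% higher), with library totals as the only scaling (41.3%, 21.4% lower and 19.8% higher) and with DESeq2 (31.7%, 15% lower and 16.7% higher). Over all 10 genes the median log2 fold change was -0.09, beside -0.01 for all genes tested, and the median absolute log2 fold change was 0.38, beside 0.18. Nothing is read from these counts, because the genes were put together with this comparison known.

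**Figure D1:**
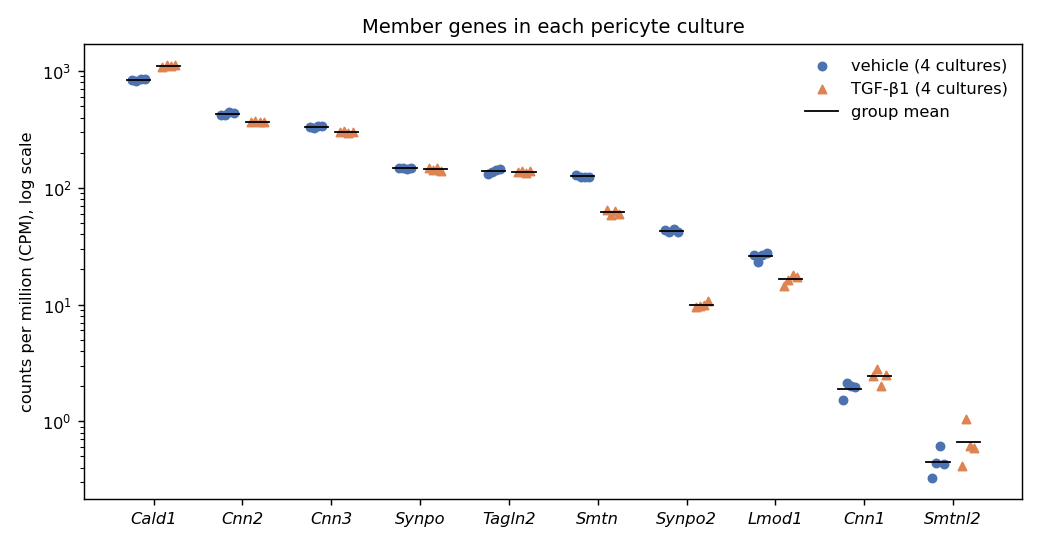
CPM of each gene (log axis) in every culture, with vehicle as circles, TGF-β1 as triangles and the group mean as a line. The groups are far apart for *Synpo2* (41.9 to 44.5 CPM against 9.51 to 10.7 CPM) and overlap for *Synpo*, *Tagln2*, *Cnn1* and *Smtnl2*.

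The synaptopodins differed from each other most. *Synpo2* (myopodin, ENSMUSG00000050315, chromosome 3, 123076519 to 123236149, minus strand of GRCm38) encodes an α-actinin binding protein of Z-discs and dense bodies. Its level was 43.7, 41.9, 44.5 and 41.9 CPM in the vehicle cultures and 9.51, 9.76, 9.84 and 10.7 CPM in the TGF-β1 cultures. Every TGF-β1 culture was far below every vehicle culture, and the ratio of the means, vehicle over TGF-β1, was 4.33. The log2 fold change of -2.11 (standard error 0.05) was the 64th lowest of the 22544 genes tested. *Synpo* (synaptopodin, ENSMUSG00000043079, chromosome 18, 60593973 to 60660142, minus strand) is known from podocyte foot processes and dendritic spines. It was at 148, 148, 145 and 147 CPM with vehicle and at 148, 141, 148 and 139 CPM with TGF-β1. These ranges overlapped, and the log2 fold change was -0.03 (standard error 0.03). Per length, *Synpo2* made up 17.2 ± 0.491% (SD, n = 4) of the summed RPKM of the family (CPM divided by the exon length in kilobases) with vehicle and 4.68 ± 0.325% (SD, n = 4) with TGF-β1. The share of *Synpo* went from 80.6 ± 0.595% to 93.1 ± 0.771% (SD, n = 4 each), and the family sum from 19.1 ± 0.153 to 16.2 ± 0.365 RPKM. The remaining paralogue *Synpo2l*, known from striated muscle, had only 53 to 101 reads per culture and was not called (edgeR adjusted p = 0.434, with a log2 fold change of -0.18 and a standard error of 0.17).

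*Smtn* (smoothelin, ENSMUSG00000020439, chromosome 11, 3517523 to 3540612, minus strand) encodes a cytoskeletal protein of contractile smooth muscle. It was at 130, 124, 124 and 123 CPM with vehicle and at 65.0, 58.7, 63.0 and 59.6 CPM with TGF-β1. All TGF-β1 cultures lay well below all vehicle cultures, with a log2 fold change of -1.02 (standard error 0.03). Exons of other genes on the opposite strand cover 16.3% of its exon bases. Of these, *Gm11946* was counted at 11.1 CPM with vehicle and 4.81 CPM with TGF-β1 and *Gm11947* at 0 in every culture, and reads of the shared bases cannot be assigned without the strand setting. *Smtnl2* (ENSMUSG00000045667, chromosome 11, 72389164 to 72411713, minus strand), a smoothelin-like gene, had 15 to 48 reads per culture. It was at 0.325, 0.439, 0.610 and 0.433 CPM with vehicle and at 0.415, 1.05, 0.611 and 0.596 CPM with TGF-β1. The groups overlapped, and 1 TGF-β1 culture stood above the other 7. At this depth, its log2 fold change of 0.56 (standard error 0.30) was not distinguishable from 0, and it ranged from 0.25 without TGF-β1 replicate 6 to 0.74 without vehicle replicate 3. *Smtn* held 98.5 ± 0.233% of the family RPKM with vehicle and 97.4 ± 0.322% with TGF-β1 (SD, n = 4 each), while the family sum went from 29.0 ± 0.715 to 14.4 ± 0.652 RPKM. *Smtnl1*, with 11 to 28 reads, was lower in every TGF-β1 culture, but was not called (log2 fold change -0.67, standard error 0.31, adjusted p = 0.0864 in edgeR's test). Under a stricter filter, which kept the genes that had 10 or more counts in all 8 cultures, edgeR gave it an adjusted p of 0.0471.

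*Lmod1* (leiomodin 1, ENSMUSG00000048096, chromosome 1, 135324807 to 135368065, plus strand) encodes the actin filament nucleator of smooth muscle. It was at 26.5, 23.2, 26.7 and 27.5 CPM with vehicle and at 14.5, 16.2, 18.03 and 17.3 CPM with TGF-β1. The groups did not overlap, and the log2 fold change was -0.65 (standard error 0.06). *Lmod1* held 96.0 ± 0.492% of the leiomodin RPKM with vehicle and 94.1 ± 1.95% with TGF-β1 (SD, n = 4 each), and these shares overlapped between the groups. The striated muscle leiomodins *Lmod2* and *Lmod3* had 6 to 20 and 10 to 23 reads, and neither was called (edgeR adjusted p = 0.624 and 0.515).

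*Cald1* (caldesmon, ENSMUSG00000029761, chromosome 6, 34598500 to 34775473, plus strand) encodes an inhibitor of actomyosin with a long form in smooth muscle and a short form elsewhere. Counts per gene do not separate the forms, and 18 transcripts are annotated. It was the most abundant of the genes in CPM, at 830, 817, 857 and 847 CPM with vehicle and at 1073, 1134, 1097 and 1119 CPM with TGF-β1. All TGF-β1 cultures were above all vehicle cultures, with a log2 fold change of 0.40 (standard error 0.02). Its mean difference of 268 CPM exceeded in size the falls of the 5 lower genes together. Summed over all 10 genes, the level was 2085 ± 41.0 CPM with vehicle and 2145 ± 30.2 CPM with TGF-β1 (SD, n = 4 each). Over the 9 genes other than *Cald1* it was 1247 ± 23.3 CPM with vehicle and 1039 ± 6.32 CPM with TGF-β1, so that the direction of the sum depended on this gene.

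Differences among the calponins were small. *Cnn2* (ENSMUSG00000004665, chromosome 10, 79988584 to 79996062, plus strand), a calponin of many non-muscle cells, was at 423, 420, 444 and 439 CPM with vehicle and at 366, 374, 365 and 367 CPM with TGF-β1. *Cnn3* (acidic calponin, ENSMUSG00000053931, chromosome 3, 121426497 to 121458207, plus strand) was at 333, 325, 342 and 337 CPM with vehicle and at 298, 305, 294 and 298 CPM with TGF-β1. In both genes the TGF-β1 cultures were all below the vehicle cultures, and the log2 fold changes were -0.23 (standard error 0.02) for *Cnn2* and -0.16 (standard error 0.02) for *Cnn3*. Of the 50-base words of *Cnn3* transcripts, 24.0% occur in other genes, mainly the antisense *Gm42928* at 2.94 CPM with vehicle and 2.25 CPM with TGF-β1. *Cnn1* (basic calponin, ENSMUSG00000001349, chromosome 9, 22099216 to 22109630, plus strand), the smooth muscle calponin, had only 70 to 129 reads per culture. It was at 1.52, 2.13, 2.02 and 1.95 CPM with vehicle and at 2.44, 2.81, 2.01 and 2.51 CPM with TGF-β1. The groups overlapped, because a TGF-β1 culture lay between vehicle cultures, and the log2 fold change was 0.36 (standard error 0.15). Its call did not hold with DESeq2, the tool of the study, nor in 8 other alternatives of the 15 tried, 5 of which left out a culture. *Cnn1* made up 0.243 ± 0.0342% of the calponin RPKM with vehicle and 0.358 ± 0.0444% with TGF-β1, beside 61.3 ± 0.253% and 60.1 ± 0.160% for *Cnn2* (SD, n = 4 each). The calponin sum went from 286 ± 7.09 to 249 ± 3.22 RPKM.

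*Tagln2* (transgelin 2, ENSMUSG00000026547, chromosome 1, 172500047 to 172507380, plus strand), the transgelin of many cell types, was at 132, 135, 141 and 145 CPM with vehicle and at 136, 139, 134 and 140 CPM with TGF-β1. The TGF-β1 values lay inside the range of the vehicle values, and the log2 fold change was -0.01 (standard error 0.03). *Tagln2* held 96.0 ± 0.514% of the transgelin RPKM with vehicle and 94.7 ± 0.536% with TGF-β1 (SD, n = 4 each). *Tagln*, the smooth muscle transgelin also called SM22α, had 57 to 96 reads and was not called (log2 fold change 0.32, standard error 0.17, adjusted p = 0.127 in edgeR's test). Without vehicle replicate 3 its adjusted p was 0.0414. Exons of *Pcsk7* and *Gm48529* cover 67.9% of its exon bases, and *Pcsk7* was at 57.6 CPM with vehicle and 52.7 CPM with TGF-β1. The level of *Tagln* is therefore uncertain, and so are the transgelin shares that rest on it, including that of *Tagln2*. *Tagln3*, known from neurons, went from 2.54 ± 0.561 to 3.46 ± 0.356 CPM (SD, n = 4 each) with overlapping groups, and passed edgeR's test (adjusted p = 0.00718) at a log2 fold change of 0.45 with a standard error of 0.14.

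**Figure D2:**
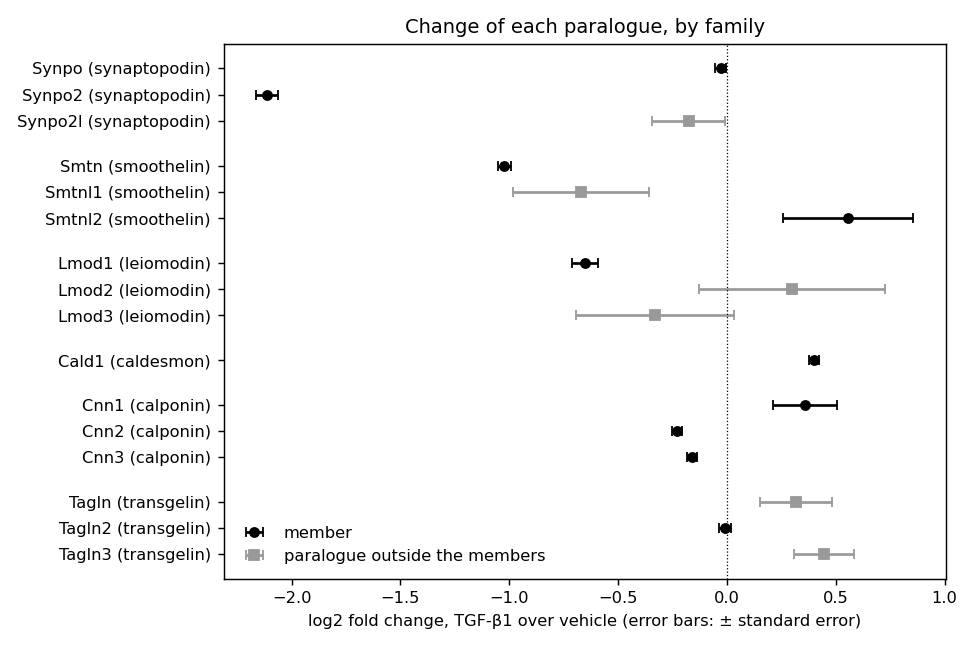
Log2 fold change of TGF-β1 over vehicle for the 10 genes (black circles) and their 6 family paralogues (grey squares), grouped by family, with bars for ± the standard error. *Synpo2* lies at -2.11 while *Synpo* lies at -0.03, and the paralogues with few reads have the widest bars.

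**Figure D3:**
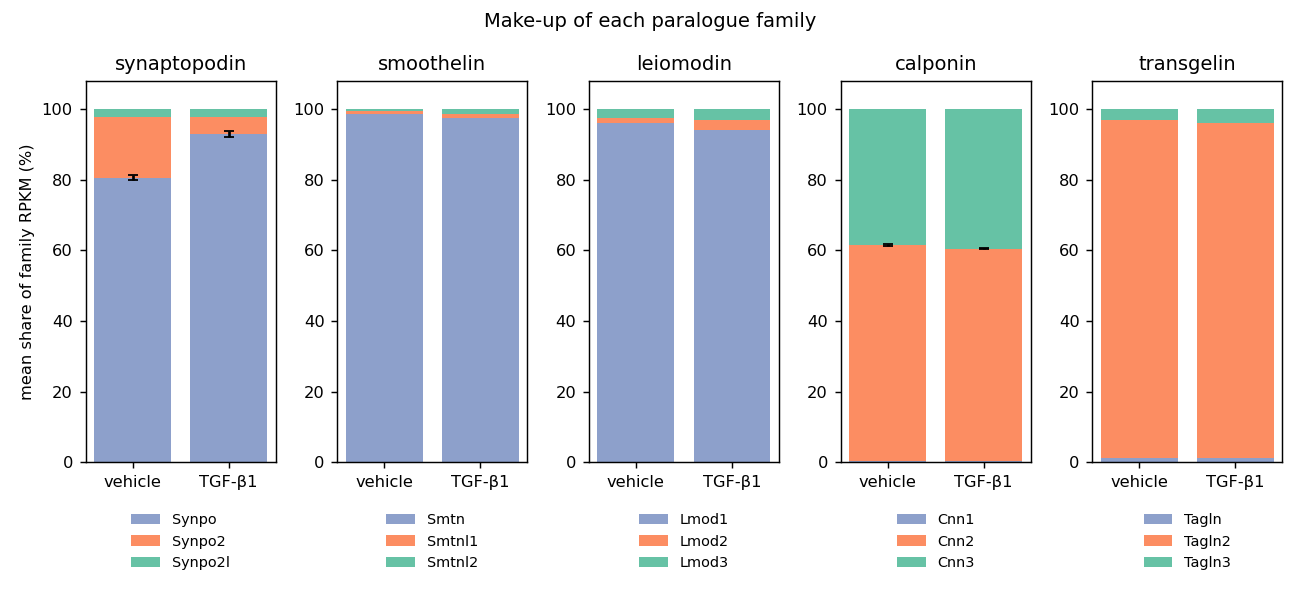
Mean share of each paralogue in the summed RPKM of its family (%) for vehicle and TGF-β1 cultures, with the SD over 4 cultures drawn for *Synpo* and *Cnn2*. The share of *Synpo2* is 17.2% with vehicle and 4.68% with TGF-β1, whereas a single paralogue holds over 94% of the smoothelin, leiomodin and transgelin families in both groups. For the transgelins this share is uncertain, because most exon bases of *Tagln* are shared with other genes.

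Levels per length covered a wide range. In the vehicle cultures the order by RPKM was *Cnn2* (175 ± 4.82), *Cnn3* (110 ± 2.38), *Cald1* (69.6 ± 1.47), *Tagln2* (66.4 ± 2.84), *Smtn* (28.6 ± 0.724), *Synpo* (15.4 ± 0.124), *Lmod1* (6.58 ± 0.472), *Synpo2* (3.29 ± 0.102), *Cnn1* (0.696 ± 0.0976) and *Smtnl2* (0.118 ± 0.0309), each as the mean and SD of 4 cultures. Only *Cald1* and *Tagln2* overlapped among neighbours in this order. *Cnn2* was thus above 99.6% of the genes tested and *Cnn1* above 25.0%. With TGF-β1, *Smtn* at 14.1 ± 0.678 RPKM overlapped *Synpo* at 15.1 ± 0.459 RPKM, and *Synpo2* at 0.760 ± 0.0380 RPKM overlapped *Cnn1* at 0.893 ± 0.121 RPKM (SD, n = 4 each). The level per length of *Synpo2* was above that of 53.1% of the genes tested with vehicle and of 27.2% with TGF-β1, and the level of *Smtn* was above that of 92.5% and 82.1%. The place of *Cald1* depends on the length used, because its merged exons span 12041 bases and its longest transcript 4777 bases. With the longest transcript, *Cald1* was at 175 ± 3.70 RPKM with vehicle, where it overlapped *Cnn2*, and at 231 ± 5.61 RPKM with TGF-β1, above all the others. With this length and TGF-β1, *Synpo* (27.9 ± 0.849 RPKM) no longer overlapped *Smtn* (18.2 ± 0.877 RPKM). *Synpo2* (1.08 ± 0.0541 RPKM) then came before *Cnn1* (1.03 ± 0.139 RPKM), still with overlap (SD, n = 4 each).

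Related genes were compared in the same edgeR test. Of the SRF and MRTF regulators, 4 were higher and 3 lower of 10 tested (of 11 listed), where 20.9% of all genes tested were higher and 20.3% lower, and the median log2 fold change was 0.11. *Srf* fell from 89.0 ± 3.78 to 62.3 ± 2.98 CPM (log2 fold change -0.52, standard error 0.03, adjusted p = 1.23e-16). Among its coactivators, *Mrtfa* fell from 130 ± 0.563 to 113 ± 2.87 CPM (log2 fold change -0.21, adjusted p = 7.35e-09) and *Mrtfb* rose from 77.8 ± 1.19 to 89.0 ± 3.27 CPM (log2 fold change 0.19, adjusted p = 5.31e-07; SD, n = 4 for each). *Myocd*, the smooth muscle coactivator, had at most 10 reads per culture and was not tested. *Elk3*, a ternary complex factor that partners SRF, rose by a log2 fold change of 0.78 (adjusted p = 2.01e-26), and *Fhl1*, a LIM-only protein, fell by 0.58 on the log2 scale (adjusted p = 1.84e-16).

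Among 29 stress fibre and Z-disc adaptors, 24 were tested, and 17 were lower and 4 higher (20.3% and 20.9% of all genes tested), with a median log2 fold change of -0.21 beside -0.01 for all genes. Among the higher genes, *Ablim3*, an actin-binding LIM protein, rose from 2.93 ± 0.404 to 8.04 ± 1.08 CPM (log2 fold change 1.46, edgeR adjusted p = 2.91e-15), and *Fblim1*, a LIM protein of cell-matrix junctions, rose from 46.3 ± 0.686 to 80.1 ± 2.89 CPM (log2 fold change 0.79, edgeR adjusted p = 3.92e-24; SD, n = 4 for each). Of 14 tested partners of the synaptopodins and their chaperone complex (15 listed), 5 were higher and 4 lower (20.9% and 20.3% of all genes tested), with changes between -0.27 and 0.34 on the log2 scale. *Magi1*, a scaffold of cell junctions, rose by 0.34 and the α-actinin *Actn1* rose by 0.30 on the log2 scale (edgeR adjusted p = 7.19e-09 and 6.73e-14). Of 12 regulators of filament ends, among them the tropomodulins related to leiomodins, 5 were lower and 1 was higher (20.3% and 20.9% of all genes tested), with a median of -0.05. *Gsn*, the severing protein gelsolin, fell by 0.79 on the log2 scale, *Pfn2* by 0.48 and *Capzb* by 0.15 (edgeR adjusted p = 1.39e-30, 3.20e-18 and 2.08e-07).

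The contractile core of actins, myosins, tropomyosins and their regulators had 7 higher and 8 lower of 22 tested (of 23 listed), beside 20.9% and 20.3% of all genes tested, with a median log2 fold change of -0.05. *Ppp1r12b*, a myosin phosphatase subunit, fell by 0.70, the kinase *Mylk* fell by 0.50, and *Actg2* rose by 0.46 on the log2 scale (edgeR adjusted p = 3.85e-25, 6.27e-13 and 4.75e-07). *Acta2* (log2 fold change -0.03, edgeR adjusted p = 0.339) and *Myh11* (-0.47, edgeR adjusted p = 0.0780) were not called, and *Myh11* had 32 to 62 reads per culture. DESeq2 did not call them either (adjusted p = 0.614 and 0.134). The groups overlapped for *Acta2*, whereas *Myh11* was at 0.955 to 1.34 CPM with vehicle and 0.697 to 0.915 CPM with TGF-β1. The paper reports both genes as downregulated by TGF-β1 in its RNA-seq of these cultures, from a plot of normalized counts. It also reports less MYH11 and αSMA staining in mouse prostate tumours, a measure of protein that was not examined here. Differences between these lists were not tested.

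**Figure D4:**
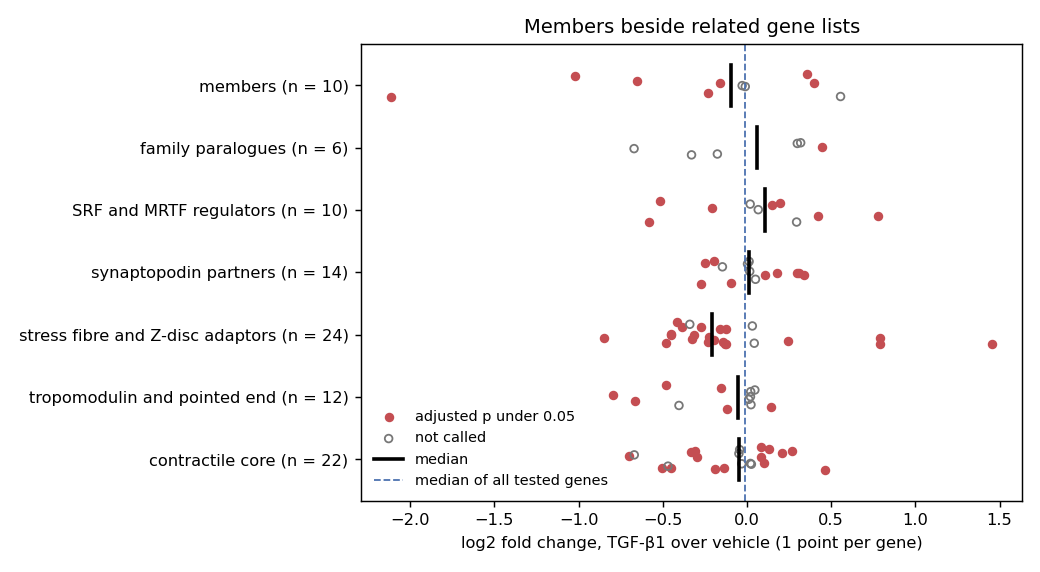
Log2 fold change of TGF-β1 over vehicle for each gene tested in the 10 genes (labelled members) and 6 related lists, filled where the adjusted p was under 0.05, with the list median as a black bar and the median of all genes as a dashed line. The stress fibre and Z-disc list has its median at -0.21, and *Synpo2* at -2.11 lies lowest of all points.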

How the data were processed

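RNA-seq libraries of 8 mouse brain pericyte cultures were analysed, 4 with TGF-β1 and 4 with vehicle. The authors aligned reads to mm10 with STAR (2.7.5c), removed PCR duplicates with SAMtools (1.15), and deposited raw counts per gene from featureCounts (2.0.3). The annotation release and strand setting are not given in the sources used here. Symbols, positions and exon lengths came from the GENCODE M21 annotation of GRCm38 (mm10).

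The counts were compared with edgeR 4.0.16 in R 4.3.3 (filterByExpr, TMM, robust quasi-likelihood test), with Benjamini-Hochberg adjustment over 22544 genes and a threshold of 0.05. CPM is the count scaled to the TMM-adjusted library size, and RPKM is CPM per kilobase of merged exons. A standard error is the size of the log2 fold change divided by the square root of F. The code was tested on simulated data. Totals of 45255235 to 47651397 counts per culture put 3 counts at 0.0631 to 0.0658 CPM.

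The members and gene lists were chosen with earlier results of these data known. Besides the members, the text names their family paralogues, 6 regulators or contractile markers set by name, and for each other list the 3 called genes with the largest change whose groups were apart and whose mean reached 1 CPM. Alternatives were DESeq2 1.42.0, other scalings and filters, halved counts, other lengths and each culture left out. Protein sequences were not analysed here. Some genes that this rule selects are not reported here.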

Additional observations from a re-analysis of the deposited data

Results flagged for a closer look

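In vehicle replicate 1 the level of *Smtn* was 129.8 CPM, apart from the next vehicle culture at 123.6 CPM. This was the only such case in 70 groups of 4 values for the named genes, and a rate of 1 in 20 would give 3.5 by chance. The gap is small beside the difference from the TGF-β1 cultures, whose highest value was 65.0 CPM.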

How the results depend on the processing

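The 5 lower genes (*Synpo2*, *Smtn*, *Lmod1*, *Cnn2* and *Cnn3*) and *Cald1* kept their direction and call in all 15 alternatives. The number of the genes that were higher went from 2 to 1 with DESeq2, with at least 1 count in any culture, with library totals only and with upper-quartile factors, and it ranged from 1 to 2 with each culture left out, because *Cnn1* lost its call. It also lost it without TGF-β1 replicate 5, 6 or 8 and without vehicle replicate 1 or 4. The direction of 2 genes that were not called turned, for *Tagln2* (-0.028 to 0.013 with each culture left out) without vehicle replicate 3 or 4 (0.0057 and 0.013) and for *Lmod2* (-0.047 to 0.61) without TGF-β1 replicate 7. Of the family paralogues, 1 was lower in place of 0 with at least 10 counts in every culture (*Smtnl1*), and 1 to 2 were higher with each culture left out (*Tagln* joined without vehicle replicate 3). The fall in the share of *Synpo2* was -12.5 percentage points, -10.2 with the longest transcript as length and -16.0 with no length scaling. The summed difference of 60.0 CPM turned to -207.8 CPM over the genes other than *Cald1*, a choice made after the data were seen, as was the order by longest transcript. The methods can be read as a paired design, but no paired analysis was possible because the labels give the groups no shared replicate number. The standard errors and p-values therefore take no account of any pairing. For *Smtnl2*, *Lmod2*, *Lmod3* and *Smtnl1*, under 50 reads per culture limit what can be detected.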
